A study of Arabidopsis thaliana with 53 samples.

Results

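Accessible chromatin of Arabidopsis thaliana seedling roots after 2 h of abscisic acid (ABA) was compared directly with that after 45 min. A peak was a member of the comparison when it shared no base with any peak of the other list, and no untreated list entered this definition. By this rule 8885 of the 47399 peaks of both lists were present at 1 time only: 8600 of 27514 peaks at 2 h and 285 of 19885 peaks at 45 min. Peaks were also compared after each list was shortened to its 15000 strongest peaks, and overlapping peaks were compared by their rank. The whole series held 353370 peaks in 18 lists.

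The assay was ATAC-seq, in which the transposase Tn5 places sequencing adapters into open DNA. Both groups consisted of roots of wild-type (WT) Col-0 seedlings moved from agar medium to agar with 50 µM ABA, with 3 samples after 45 min and 3 after 2 h. The nuclei carried histone H2B fused to EGFP and were isolated by flow sorting, and the promoter that drives this marker in roots is not given in the sources used here. Root lists used for description came from WT with the ethanol vehicle (labelled 4 h, 3 samples) and WT with 50 µM ABA for 4 h (3 samples). Others came from the abf1/2/3/4 mutant with vehicle (3 samples), with ABA for 45 min (2 samples) and with ABA for 2 h (3 samples). The titles of the last group state 2 h, whereas its treatment time is labelled 4 h.

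ABA is the hormone through which plants respond to drought and salt. Its PYR/PYL receptors bind and inhibit clade A PP2C phosphatases, which frees SnRK2 kinases to phosphorylate the bZIP factors ABF1 to ABF4 and relatives. These factors bind promoters of protective genes, of the PP2C phosphatases and of enzymes that make or break down ABA. In roots the pathway alters growth, water transport and the barriers of the outer cell layers.

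One peak list represents each group, so no value could be set against the spread between samples and no test across samples was possible. The 2 h list was the longer one and covered 14.2 Mb, against 9.76 Mb at 45 min. Each peak carries the authors' −log10 p, an uncorrected value of their peak caller that is used here only to describe, rank or filter peaks within a list. Its median was 8.11 at 2 h and 6.92 at 45 min, and at rank 15000 it stood at 7.60 and 5.29. The depth of the samples is unknown, and a longer list from deeper or cleaner libraries cannot be told apart from one with more open sites. Of 19 genes that mark root cell types, 16 had a peak inside or within 1500 bp at 2 h, 13 at 45 min and 17 in the WT vehicle list. Of all 27444 protein-coding genes, 77.5%, 66.7% and 75.7% had one. Of 12 guard cell markers 5 had a peak at both times, against 10 in the untreated guard cell list. Of 9 mesophyll and photosynthesis markers 5 had one at 2 h and 3 at 45 min, against 9 in the untreated mesophyll list. The guard cell list also had one at 9 of these markers and at 13 of the 19 root cell type genes. The mesophyll list had one at 9 of the 19 and at 3 of the 12 guard cell markers.

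In the full lists, nearly all peaks without a partner were in the 2 h list. Peaks only at 2 h made up 31.3% of the 2 h list (95% exact interval 30.7% to 31.8%). Peaks only at 45 min made up 1.43% of the 45 min list (1.27% to 1.61%). These intervals treat peaks as independent and cover counting error only. With both lists at 15000 peaks, 1683 peaks (11.2%, 10.7% to 11.7%) were only at 2 h and 1225 (8.17%, 7.73% to 8.62%) only at 45 min. Most of these had a partner below rank 15000 in the other list. At equal list length and with 1 bp as the rule, the 2 counts can differ only where 1 peak overlaps several of the other list. Among the 15000 strongest peaks of each list, 427 of the 2 h list (2.85%) were absent from the entire 45 min list and 29 of the 45 min list (0.193%) were absent from the entire 2 h list.

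Peaks present at 1 time only stood low in their lists. The strongest peak only at 2 h had rank 6937, and none of the 6000 strongest 2 h peaks lacked a partner at 45 min. The share without a partner was 17.6% at ranks 14001 to 15000 and 93.8% among the last 514 peaks. At 45 min the first peak without a partner had rank 12240, and the share reached 8.47% among the last 885 peaks. The plot of absence by rank shows both curves.

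**Figure D1:**
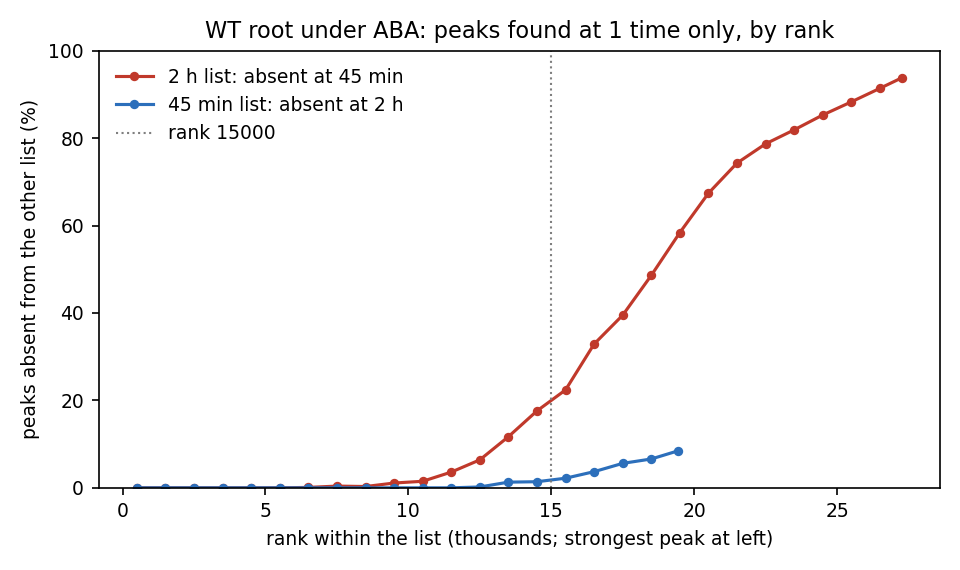
Share of peaks with no overlapping peak at the other time (y axis, percent) against their rank within the list (x axis, in units of 1000 ranks, strongest at left). The 2 h curve (red) climbs to 93.8% and the 45 min curve (blue) to 8.47%, and both are at 0 for the 6000 strongest peaks.

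Peaks only at 2 h were also weak and narrow, with a median −log10 p of 5.33 and a median width of 283 bp, against 10.3 and 468 bp for the shared peaks of that list. Of these peaks, 97.4% were in the lower 50% of the 2 h list. For the 285 peaks only at 45 min the median −log10 p was 4.52 and the median width 255 bp, against 6.97 and 390 bp for shared peaks. At the edge of the rule, 805 of the 8600 and 39 of the 285 had a peak of the other list within 200 bp. On the other side, 1072 shared 2 h peaks and 65 shared 45 min peaks were covered to less than 50%, and the smallest overlap that counted as shared was 29 bp at 2 h and 36 bp at 45 min.

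The members were spread over the genome. The share of 2 h peaks without a partner lay between 29.6% on chromosome 3 and 33.3% on chromosome 2. Over 109 windows of 1 Mb with at least 50 peaks it had a median of 30.8% and ranged from 18.2% to 53%.

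Where the members lay relative to genes set the directions apart. Summits of 64.0% of peaks only at 2 h (63.0% to 65.0%) were inside a protein-coding gene, against 34.4% of the shared 2 h peaks and 34.7% of shared peaks weighted to the same ranks by deciles of the list. Summits in the 1 kb flanks of genes made up 24.3%, against 49.8% of shared peaks. Of the summits inside genes, 45.3% were more than 500 bp from both ends of the gene, against 22.1% for shared peaks. Peaks only at 45 min had the opposite placement: 26.0% were inside genes (21.0% to 31.5%), against 33.7% of shared peaks and 43.4% at matched rank, and 26.0% were more than 1 kb from any gene, against 16.0%.

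Shared peaks that ranked higher at 2 h were inside genes more often than those that ranked lower. One-to-one overlaps gave 17799 pairs, each ranked among the pairs of its own list and expressed as a percentile. The change, as the 2 h percentile minus the 45 min percentile, had a standard deviation of 11.9 points and a median size of 5.97 points. Of the pairs, 2808 (15.8%) stood at least 10 points higher at 2 h and 2892 (16.2%) at least 10 points lower. Summits were inside genes in 46.8% of the former and 27.6% of the latter, against 34.7% of all pairs. Changes of 25 points or more numbered 564 upward and 384 downward. At 2 h the peak was the wider one in 13633 pairs, with a median width of 452 bp against 382 bp, and 785 peaks at 2 h overlapped at least 2 peaks of the 45 min list while 170 peaks at 45 min overlapped at least 2 of the 2 h list.

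The other lists, which had no part in choosing the members, divided the 8600 peaks. More than 50% of them, 4635 peaks (53.9%), were present in the WT vehicle list, against 95% of shared peaks at matched rank. At 4 h of ABA 4157 (48.3%) were present, against 86.5%. Thus 2542 peaks were in the vehicle list and at 4 h, 2093 in the vehicle list and not at 4 h, 1615 at 4 h and not in the vehicle list, and 2350 in neither. Shared peaks were chosen for presence in a second list, which can by itself raise their share in further lists. Matching of ranks does not remove this, and it applies wherever presence is set against shared peaks.

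These 4 classes differed in position. Summits were inside genes in 80.5% of peaks of the vehicle list that were missing at 4 h and in 79.9% of those in neither list. The share was 36.7% for peaks also at 4 h and absent from vehicle, against 34.4% of shared peaks. For peaks in both lists it was 53.1%. Within the 427 strong peaks the same order held: 87.7% of 65 peaks in vehicle and not at 4 h were inside genes, 63.8% of 240 in both, and 26.9% of 119 at 4 h and not in vehicle, which leaves 3 in neither. The plot of position by class shows the full lists.

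**Figure D2:**
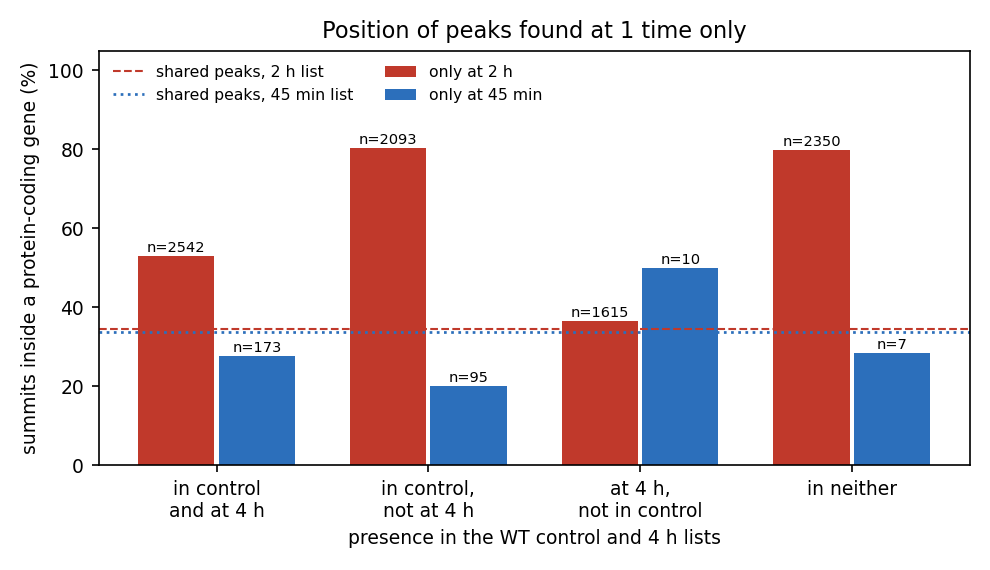
Share of summits inside a protein-coding gene (y axis, percent) for peaks only at 2 h (red bars) and only at 45 min (blue bars), split by presence in the WT vehicle and 4 h ABA lists (x axis), with the number of peaks above each bar and shared peaks as broken lines. The red bars stand at 80.5% and 79.9% for peaks missing at 4 h and at 36.7% for peaks at 4 h but not in the vehicle list. The blue bars for peaks absent from the vehicle list rest on 10 and 7 peaks.

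Peaks only at 45 min were nearly all in the vehicle list: 268 of 285 (94.0%, 90.6% to 96.5%), against 93.4% of shared peaks at matched rank. At 4 h only 183 were present (64.2%, 58.3% to 69.8%), against 92.4%. Of the 95 that were in the vehicle list and missing at 4 h, 77 were also in the vehicle list of the mutant. All 29 strong peaks only at 45 min were in the WT vehicle list, and 14 of them were at 4 h.

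Peaks only at 2 h were rare in the abf1/2/3/4 lists. They were present there at 12.7% with vehicle, 9.21% after 45 min and 8.09% after 2 h, against 67.8%, 58.3% and 44.5% of shared peaks at matched rank. Part of this gap can come from the choice of shared peaks by presence in the 45 min list. The mutant lists were shorter, with 19277, 18116 and 17705 peaks, and their length and the mutation cannot be told apart here. Of the 427 strong peaks, 136 (31.9%) were in the mutant list at 2 h. This share differed by class: 99 of 240 peaks in vehicle and at 4 h were in the mutant at 2 h, as were 28 of 65 in vehicle and not at 4 h, and 9 of 119 at 4 h and not in vehicle.

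**Figure D3:**
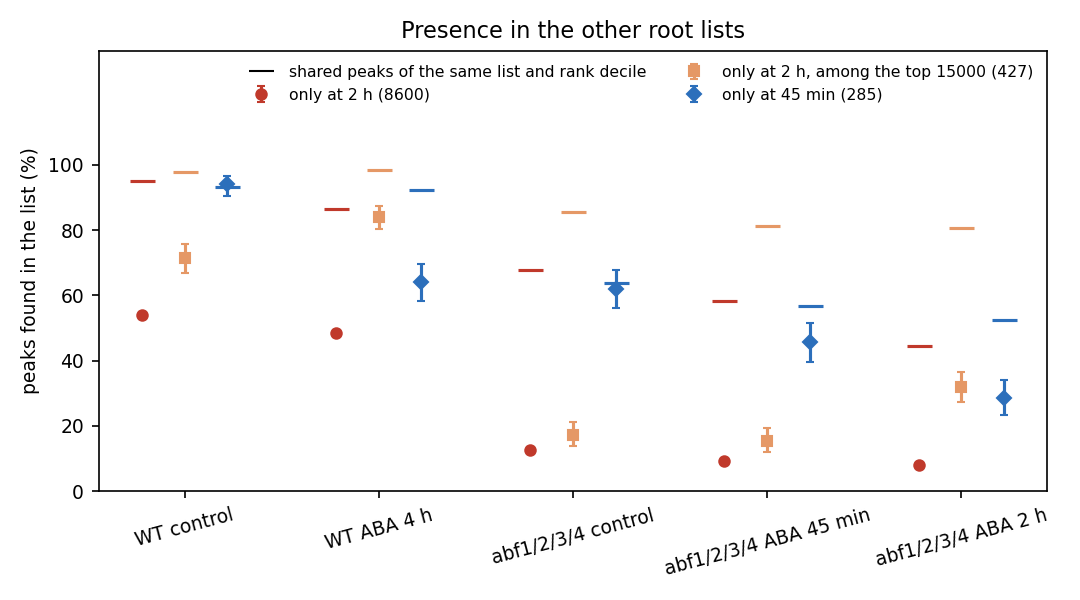
Share of peaks found in each other root list (y axis, percent; x axis, list) for all peaks only at 2 h (red circles), those among the 15000 strongest (orange squares) and peaks only at 45 min (blue diamonds), with exact 95% intervals and, as short lines, shared peaks of the same rank. Blue reaches its line in the vehicle lists (94.0% in WT) and lies below it at 4 h (64.2%), whereas red lies below its line in all lists, down to 8.09%.

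The same pair of times in the mutant ran the other way in number. There 977 of 17705 peaks (5.52%) were only at 2 h and 1782 of 18116 (9.84%) only at 45 min. The position was alike: 60.9% of the former and 29.8% of the latter were inside genes. In WT from 2 h to 4 h, 3005 of 25604 peaks (11.7%) were only at 4 h and 4842 of 27514 (17.6%) only at 2 h, with 34.4% and 77.1% inside genes. With 15000 peaks per list, 6.69% and 8.77% were unmatched in the mutant and 10.8% and 11.0% in WT from 2 h to 4 h.

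The strongest peaks only at 2 h included one next to NAC019 and one with CYP707A3 as its nearest gene, both genes of the ABA response. Of the 6 strongest, 5 were absent from the WT vehicle list, all 6 were at 4 h and 1 was in a mutant list. The first lay outside and next to NAC019, a NAC transcription factor induced by drought and ABA, at chr1:19696693-19697082. It had a −log10 p of 12.1 at 2 h and 11.4 at 4 h and no peak at 45 min, with vehicle or in any mutant list. The third, at chr5:18375069-18375481, had CYP707A3 as its nearest gene, 4276 bp away and so outside the 1500 bp window. The gene codes for an ABA 8′-hydroxylase, which inactivates the hormone. The site had a −log10 p of 11.7 at 2 h, 9.16 at 4 h and 3.96 in the mutant at 2 h, and no peak in the other root lists. The peaks only at 2 h that lay inside CYP707A3 or within 1500 bp had 5.18 and 4.35 and were also with vehicle.

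The other 4 were at loci known here by their identifiers. AT5G66070 held a peak of 11.7 at both 2 h and 4 h, and AT5G40790 one of 11.4 and 11.0. AT3G27250 held a peak of 11.3 at 2 h and 17.8 at 4 h, at percentile 70.8 and 95.1 of their lists. The peak next to AT5G18450 had 11.6 and 11.3 and was the one also found with vehicle, at 6.02. In each case the 45 min list and the mutant lists had no peak.

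The strongest peaks only at 45 min had lower values and were also sites of the untreated root. IGMT4, an indole glucosinolate methyltransferase gene, had a nearby peak of 6.11 at 45 min and 9.37 with vehicle, with none at 2 h or 4 h. In the mutant the site was present with vehicle at 7.52, after 45 min at 8.17 and after 2 h at 6.45. Near PUB26, a U-box ubiquitin ligase gene, the values were 5.86 at 45 min, 7.17 with vehicle and 6.01 at 4 h. Near MIF3, a mini zinc finger gene, they were 5.74, 7.53 and 4.96. All 6 strongest were in both vehicle lists, and AT3G52500, AT1G42430 and AT5G28060 gave the other 3. AT1G42430 and AT5G28060 are only the nearest genes, 19686 and 6701 bp away.

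**Figure D4:**
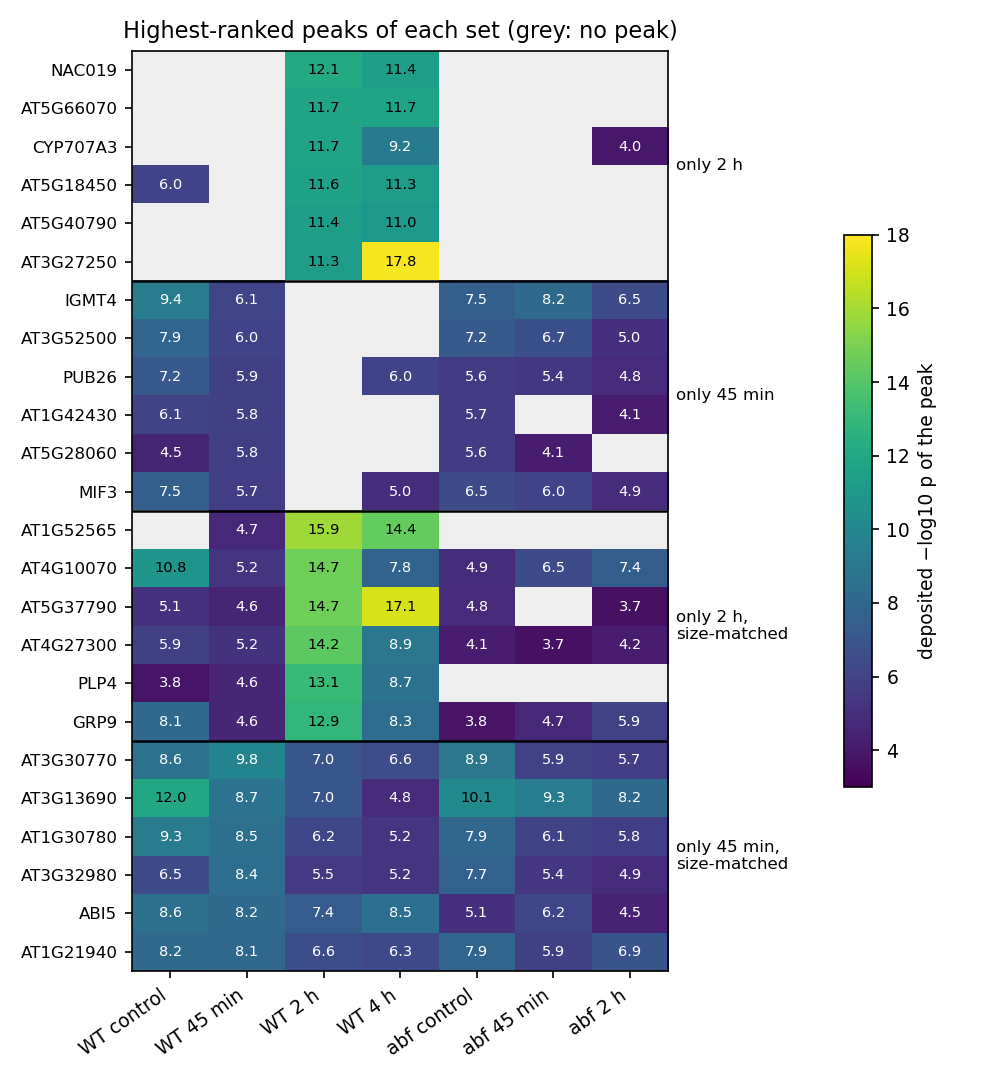
Deposited −log10 p (colour and number) of the 6 strongest peaks of each set (rows, named by the gene around the summit or, outside genes, the closest one) in the 7 root lists (columns), grey where a list has no peak. NAC019 has values of 12.1 and 11.4 at 2 h and 4 h and grey elsewhere, while the peaks only at 45 min, up to 6.1, have values in both vehicle columns.

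In the lists of 15000, the strongest 2 h peaks without a partner were sites with a weak peak at 45 min. The strongest lay near AT1G52565 at chr1:19581733-19582312, with 4.74 at 45 min, 15.9 at 2 h and 14.4 at 4 h and no peak with vehicle or in the mutant. It was also the pair with the greatest increase in rank, from percentile 13.0 to 83.0 of the pairs, a change of 70.0 points. A site with AT5G37790 as its nearest gene, 5459 bp away, followed with 68.2 points. Then came PMAT1, a phenolic glucoside malonyltransferase gene, with 61.3, and PLP4, a patatin-like protein gene, with 59.8. AT4G34380 and GRP9, a glycine-rich protein gene, had 58.8 and 58.7. With pairs ranked by the area score instead, these 6 changes were 50.2, 52.4, 68.2, 43.5, 50.0 and 47.8 points. AT4G10070 and AT4G27300 completed the 6 strongest of that set.

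The greatest decreases in rank were at sites of 164 to 474 bp, 5 of 6 outside genes. The pair near AT3G32980 went from percentile 67.0 to 4.17, a change of −62.9 points. AT3G30770, AT1G30780, AT3G13690, AT1G21940 and AT3G27240 followed with −61.5, −58.6, −52.7, −50.4 and −50.2 points. Outside genes these names are the nearest genes, which lay 4009 bp away for AT3G32980 and 22488 bp for AT3G30770. All 6 sites had a peak in all 7 root lists and in the untreated mesophyll list. By the area score the 6 changes ranged from −29.7 to −49.6 points.

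In the 15000 strongest peaks, a site inside ABI5, which codes for a bZIP factor of the ABA response in seeds and seedlings, was among the 6 strongest only at 45 min. It had a −log10 p of 8.19 at 45 min, 7.39 at 2 h, 8.48 at 4 h and 8.56 with vehicle. A second site at ABI5 went the other way, from percentile 6.03 of the pairs at 45 min to 36.9 at 2 h.

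The ABA pathway was read in 6 lists with 94 genes. Of these, 41 (43.6%) had a peak only at 2 h inside or within 1500 bp, against 38.2% of all genes, so this count is near the background. The pathway stood further from the background at sites that were also at 4 h and not with vehicle: 25 of 94 genes (26.6%) had such a peak, against 7.73% of all genes. In the 8 other lists, of root cell types, nutrient transport, auxin and ethylene, cell cycle, clock, immunity and touch and the guard cell and mesophyll markers, 11 of 112 genes (9.82%) had one. Single ABA lists ranged from 7.14% (receptors) to 45.8% (transcription factors). The others ranged from 0% (auxin and ethylene, cell cycle) to 25% (guard cell markers) and 30% (nutrient transport). Any peak at 2 h was found at 95.7% of the 94 genes, 82.1% of the 112 and 77.5% of all genes. A peak only at 2 h that ranked among the 15000 strongest was found at 7 of the 94 genes (7.45%) and 4 of the 112 (3.57%), against 2.46% of all genes. No listed gene had a strong peak absent from the entire 2 h list, against 0.124% of all genes. With both lists at 15000 peaks, 20 of the 94 genes (21.3%) had a peak only at 2 h, against 9.51% of all genes, and 11 (11.7%) had one only at 45 min, against 6.19%. A pair at least 10 points higher at 2 h was found at 31 of the 94 genes (33.0%), against 15.4% of all genes, and one at least 10 points lower at 19 (20.2%), against 13.7%. The 94 genes had 61 separate peaks only at 2 h, of which 32 were at 4 h and not with vehicle, 12 in both, 8 with vehicle only and 9 in neither. None of the 32 was in any of the 3 mutant lists, which allows a share of up to 9.38% in each. Of all 1615 peaks of this class, 82 were in the mutant list with vehicle, 77 after 45 min and 35 after 2 h. Both readings with a 4 h and vehicle condition were chosen after the data were seen.

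**Figure D5:**
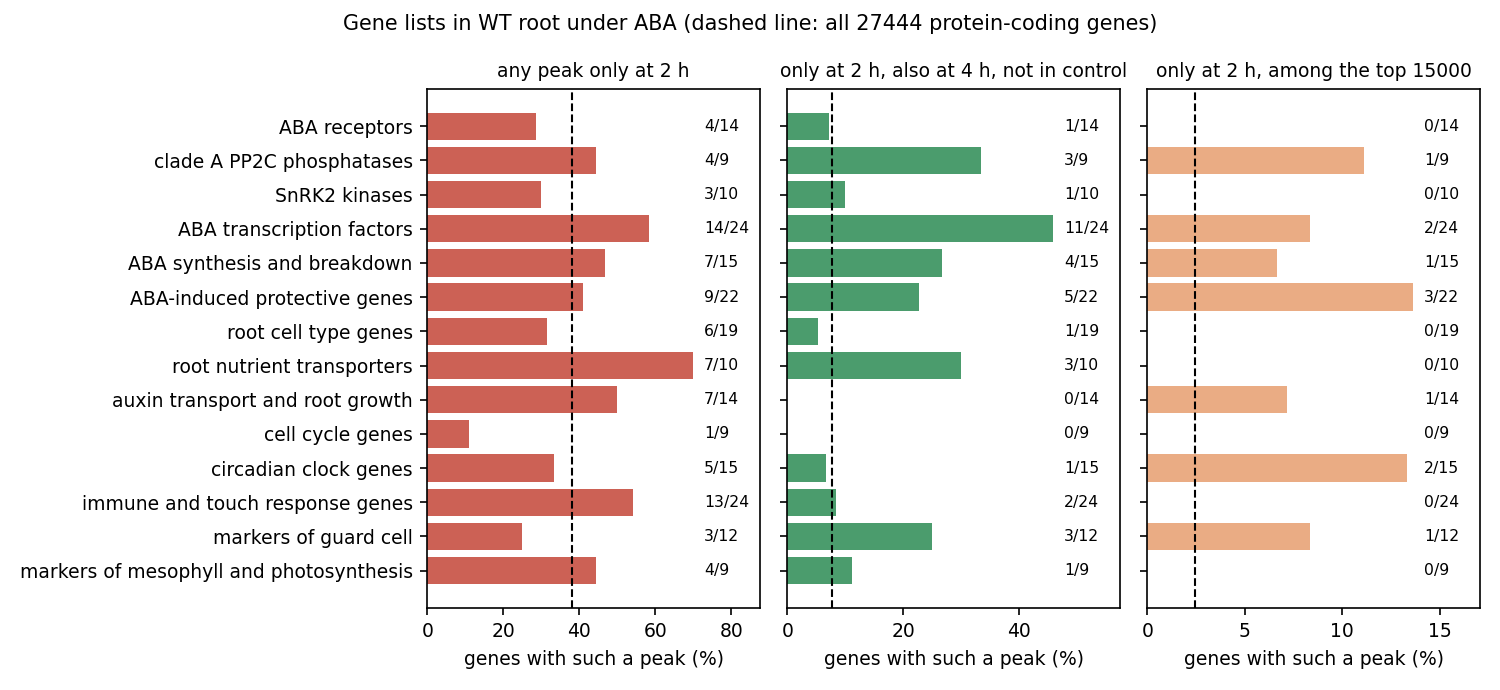
Share of the genes of each list (bars, percent on the x axis) with any peak only at 2 h (left), with one also at 4 h and not with vehicle (middle) and with one among the 15000 strongest 2 h peaks (right), with counts beside the bars and all 27444 protein-coding genes as a broken line (38.2%, 7.73% and 2.46%). ABA transcription factors reach 11 of 24 genes in the middle panel and ABA receptors 1 of 14.

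The receptor genes stood at the background in this reading. Only PYR1 of 14 receptor genes had a peak at 2 h and 4 h and not with vehicle, and it was weak, with −log10 p of 4.85 and 5.69. PYL1, PYL4 and PYL6 had peaks only at 2 h that were also with vehicle, which 24.2% of all genes had. PYL4 was 1 of the 3 listed genes with a peak only at 45 min (1.36% of all genes had one), with 4.68 at 45 min. The site overlapped a vehicle peak that also overlapped 1 of the PYL4 peaks only at 2 h. Of 27 pairs at receptor genes, 4 stood at least 10 points higher and 9 at least 10 points lower at 2 h, with a median of −7.45 points against −0.28 over all pairs. At PYL8 a pair had −30.7 points and another −21.2. PYL9 stood out in the other direction with 28.3 points.

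Among the PP2C phosphatases, which the receptors inhibit, ABI2, AHG1 and HAI3 of 9 had a peak at 2 h and 4 h and not with vehicle. Of all genes 7.73% had one. HAI3 had no peak inside or within 1500 bp at 45 min, and both HAI3 and AHG1 had 4 peaks only at 2 h. The strongest HAI3 peak, at chr2:12607935-12608658, had 9.70 at 2 h and 14.4 at 4 h, with none in the other 5 root lists, and a second one had 7.90 and 5.17. The AHG1 peaks only at 2 h had 5.03 to 5.97, while its strongest 2 h peak, 9.87, overlapped a 45 min peak of 6.54. HAI2 and HAB1 had peaks at 45 min that stood 23.1 and 37.5 points higher among the pairs at 2 h, and another HAB1 pair had −19.8 points. HAI1 had a peak inside the gene at 45 min, with 5.02, that was in no other root list.

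Of the 10 SnRK2 kinase genes 3 had a peak only at 2 h, against 38.2% of all genes. OST1, which acts in stomatal closure, was the only 1 with a peak at 2 h and 4 h and not with vehicle, at 4.97 and 6.58. Of all genes 7.73% had one. SNRK2.2 and SNRK2.5 had weak peaks only at 2 h, at 4.44 and 4.81, that were also with vehicle. Of 18 pairs 6 stood at least 10 points higher and 2 lower, against 15.8% and 16.2% of all pairs, with SNRK2.7 at 25.8 points and SNRK2.3 at −30.4 points.

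Transcription factors held the most such sites. At 11 of 24 genes (45.8%) a peak was at 2 h and 4 h and not at 45 min or with vehicle, against 7.73% of all genes. These were ABF2, ABF4, ABI5, ABI3, HB6, NAC019, NAC055, RD26, HSFA6A, MYB96 and MYB102. Besides NAC019, the strongest was near ABF4, 1 of the bZIP factors mutated in abf1/2/3/4, at chr3:6686875-6687198, with 8.09 at 2 h and 8.50 at 4 h. ABF2, another of them, had a peak of 7.04 and 6.65 inside the gene. Outside it, a peak of 6.19 at 2 h overlapped a 4 h peak of 17.1. Beside it lay the strongest ABF2 peak, with 17.5 at 2 h and 12.6 at 45 min, at ranks 2430 and 1698 of their lists. Whether the 4 h peak also covered that site was not checked. The ABI5 peak had 4.10 at 2 h and enters the count through a 4 h peak of 8.48. That 4 h peak also overlapped the ABI5 site with 8.19 at 45 min and 8.56 with vehicle. ABI3, the B3 factor of seed maturation, had 6.53 and 8.34, and at a second site a pair that stood 39.8 points higher at 2 h and had no peak with vehicle. MYB102 had a pair 48.4 points higher, with 5.30 at 45 min, 13.5 at 2 h and none with vehicle. Other sites stood lower: a pair at NAC032 had −39.6 points and one at HB5 −23.3 points. In the full peak lists no gene of this list had a peak only at 45 min, against 1.36% of all genes. With both peak lists at equal length, 5 of the 24 genes (20.8%) had one, against 6.19% of all genes. These were ABI5, HB5, HB7, NAC032 and DREB2A. At that length 4 of the 24 (16.7%) had a peak only at 2 h, against 9.51% of all genes.

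In ABA synthesis and breakdown, NCED2, NCED3, NCED5 and CYP707A2 of 15 genes had a peak at 2 h and 4 h and not with vehicle. Of all genes 7.73% had one. NCED3 codes for the enzyme at the rate-limiting step of synthesis under drought. Its peak only at 2 h had 7.48 at 2 h and 5.40 at 4 h, and 2 of its pairs stood 22.6 and 30.0 points higher at 2 h. CYP707A2, another ABA 8′-hydroxylase gene, held a peak of 10.4 and 11.8 inside the gene at chr2:12495817-12496176. A pair at the same gene stood 50.8 points higher at 2 h, with 4.88 at 45 min, 12.5 at 2 h, 14.0 at 4 h and no peak with vehicle. Over 24 pairs the median was 4.31 points, with 7 pairs at least 10 points higher and 1 lower.

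Of the protective genes, RD22, KIN1, LEA4-5, EM1 and EM6 of 22 had such a peak, against 7.73% of all genes. EM6, which codes for a late embryogenesis abundant protein, had the strongest, with 10.5 at 2 h and 8.61 at 4 h at chr2:16779679-16780727 and none in the other 5 root lists. KIN1, a gene induced by cold and ABA, had 7.91 and 6.58. RD22, a dehydration-responsive gene, had no peak at 45 min, 1 of 4.98 and 6.64 at 2 h and 4 h, and a stronger one of 7.70 that was also with vehicle at 5.48. Pairs at LEA7 and COR15B stood 54.7 and 50.0 points higher at 2 h. LEA7 had 4.77 at 45 min, 12.8 at 2 h and 13.0 at 4 h and no peak with vehicle or in the mutant, whereas COR15B had 8.66 with vehicle. The best-known members, RD29A and RD29B, had no peak at 1 time only, and the strongest RD29A peak had 18.8 at 2 h and 12.8 at 45 min. By rank it did not rise, with rank 1857 at 2 h and 1534 at 45 min, and the 2 RD29A pairs changed by −1.67 and −4.62 points.

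The genes outside the ABA lists had 63 peaks only at 2 h. Of these 13 were at 4 h and not with vehicle, 16 in both, 16 with vehicle only and 18 in neither, against 18.8%, 29.6%, 24.3% and 27.3% of all 8600 peaks. Of the 14 genes of auxin and ethylene 7 had a peak only at 2 h, against 38.2% of all genes, and 0 had one at 4 h and not with vehicle, against 7.73%. GH3.3, an enzyme gene that conjugates auxin, had a peak of 7.90 inside the gene at 2 h and 7.19 with vehicle, with none at 4 h. AUX1, the auxin influx carrier gene, had a peak only at 45 min, with 5.18, that was with vehicle at 6.34 and at 4 h at 6.19. Of 9 cell cycle genes, CYCB1;1 had a peak only at 2 h, against 38.2% of all genes.

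Root cell type genes had 6 of 19 members with a peak only at 2 h, against 38.2% of all genes. COBL9, a root hair gene, was the only 1 also at 4 h and not with vehicle, at 6.62 and 4.82, against 7.73% of all genes. The 3 pairs at SHR, the mobile regulator of root ground tissue, all stood lower at 2 h, by −30.3, −28.9 and −27.6 points. Nutrient transporters had the greatest share in any list, 7 of 10, against the same 38.2%. IRT1, SKOR and AMT1;1 had one at 4 h and not with vehicle, against 7.73%. IRT1, the iron transporter gene, had no peak at 45 min and weak ones of 4.64 and 4.06 at 2 h.

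Of 15 clock genes 5 had a peak only at 2 h, against 38.2% of all genes. The same 5 (33.3% of the 15) had such a peak that was also with vehicle, against 24.2% of all genes. Of these, LUX also had one at 4 h and not with vehicle, with 6.69 at 2 h and 8.75 at 4 h. Inside ELF3 and PRR7, which belong to the clock, peaks of 8.43 and 7.63 at 2 h were also with vehicle at 5.82 and 6.70. Of 24 immune and touch genes 13 had a peak only at 2 h, against 38.2% of all genes. In 9 of the 24 (37.5%) one was also found with vehicle, against 24.2% of all genes. WRKY33 and TCH4 were the 2 with a peak at 4 h and not with vehicle, against 7.73% of all genes. Among the guard cell markers KAT1, GORK and ALMT12 of 12 had one, against the same 7.73%. GORK, an outward potassium channel gene also known from root epidermis, had 7.62 at 2 h and 8.36 at 4 h. Of the 9 mesophyll markers LHCB2.1 had one, at 5.79 and 3.79.

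Further strong peaks at 2 h and 4 h and not with vehicle are given here as examples chosen after their values were seen. MAPKKK17, an ABA-induced kinase gene, was nearest to a peak of 9.27 and 14.3. MP, the auxin response factor MONOPTEROS, was nearest to one of 9.12 and 20.6, and GPAT5, an enzyme of suberin formation, to one of 7.87 and 11.6. None of these 3 was in a mutant list. Examples of the opposite class, inside genes, with vehicle and not at 4 h, were TUB7 and TUA2, which code for tubulins, with 8.56 and 8.42 at 2 h and 5.83 and 6.57 with vehicle. PIP1A and PIP1B, aquaporin genes, had 7.78 and 7.66 at 2 h and 6.20 and 4.56 with vehicle.

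Peaks only at 2 h had 6946 different nearest genes, of which 5596 had 1 such peak, 1103 had 2, 198 had 3, 41 had 4 and 8 had 5. Of the 8, the first 3 by identifier were NRT1.5, AT1G43730 and UMAMIT12. NRT1.5, a transporter that loads nitrate into the xylem, held 4 of its 5 inside the gene and had 1 shared peak. At UMAMIT12, of a family of amino acid transporters, 1 of 5 was inside.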

How the data were processed

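Peak lists were analysed as deposited, 1 per group; how the samples were combined is not given in the sources used here. The submitters' processing notes name Trim Galore 0.6.5, cutadapt, FastQC, SAMtools, Picard, Genrich, bedtools 2.30, DESeq2 1.26.0, deepTools 3.5.0 and the build TAIR10, without roles. The deposited files give per peak the authors' −log10 p (uncorrected), their area score (a signal) and the summit. No values per sample were used, so the depth per sample is unknown. No values per replicate were analysed here, so p-values were not computed.

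Peaks were ranked by −log10 p, then by area score and position. Overlap of 1 bp counted as shared, so a wide peak of another list can count for several sites. Shares carry exact Clopper-Pearson 95% intervals, and a count of 0 allows up to 3 counts. Overlap code was tested on simulated data. Genes came from a RefSeq table of TAIR10.1, which holds no strand. All 206 listed genes matched. The fit of build and table was checked on the 45 min summits: 39.9% were at most 150 bp from an end of a gene, and 13.2% or 13.3% when shifted by 5 kb to either side. EM6 is GEA6 and HB7 is HB-7 in that table. The planned motif search and distances to gene starts need sequence and strand and were not run. Named genes follow a rule: the 6 strongest peaks of each set, the 6 greatest rank changes in each direction, the 3 genes with the most peaks only at 2 h (ties by identifier), and list members. Members, lists and rules were chosen with earlier results of these data known. Python 3.11.15, pandas 2.3.3, NumPy 2.4.6, SciPy 1.17.1 and matplotlib 3.10.9 were used.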

Additional observations from a re-analysis of the deposited data

Results flagged for a closer look

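The direction of the difference in list content was opposite in the genotypes. In WT the share of peaks only at 2 h exceeded the share only at 45 min by 29.8 percentage points. In the abf1/2/3/4 mutant the share only at 2 h was lower, with a difference of −4.32 percentage points. The difference between the genotypes was not tested, since each group has 1 list. The mutant list at 45 min rests on 2 samples and its 2 h group carries a label of 4 h. List length moved with the direction in both genotypes: the 2 h list was the longer one in WT (27514 against 19885 peaks) and the shorter one in the mutant (17705 against 18116). The part of list length in this result was not tested.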

How the results depend on the processing

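The order of the shares, more peaks only at 2 h than only at 45 min, was kept under every alternative run, while the sizes depended on the setting. The full lists differ in length, which by itself favours this order. At equal length and with 1 bp as the rule, it can only come from peaks that overlap several of the other list. Whether more sites were open at 2 h was not tested. Requiring 50% coverage gave 35.2% and 1.76% in the full lists and 16% at 2 h in the lists of 15000. Counting a peak within 200 bp as shared gave 28.3% and 1.24%, and 10.5% and 7.35% in the lists of 15000. With both lists limited to −log10 p of at least 5 the shares were 35.6% and 0.608%, and at 10 they were 60.2% and 0.0246%. Here fewer 45 min peaks pass by construction, since its values are lower. Ranking by area score gave 12.2% and 9.07%, and a length of 10000 gave 8.69% at 45 min. Absence from the entire other list gave 2.85% and 0.193%. Of the pairs, 32% moved by 10 points or more, 30.9% by area score and 30.4% with 50% of both peaks covered. Of the 206 listed genes 42.2% had a peak only at 2 h, 27.7% inside the gene only, 17.5% in the lists of 15000 and, as alternatives chosen after seeing the data, 5.34% for peaks absent from the entire 45 min list and 17.5% at 4 h and not with vehicle. The same settings gave 38.2%, 21.1%, 9.51%, 2.46% and 7.73% of all genes. The share of peaks only at 2 h inside genes, 64%, was 62.1% with 50% coverage, an alternative chosen after seeing the data. No paired analysis was possible because each group has 1 pooled list, so leaving out replicates was not run either. The planned motif search was not run. Unknown depth limits all statements on absence.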
